A study of Mus musculus with 11 samples.

Results

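The genes described here build ribosomes. They are 57 genes for RNA polymerase I and its transcription factors, for the small nucleolar ribonucleoproteins (snoRNPs) and for the assembly of the 40S and 60S subunits, chosen by symbol from the 54347 genes of the count table. RNA polymerase I transcribes the ribosomal DNA repeats in the nucleolus into a single long precursor. Box C/D and box H/ACA snoRNPs place methyl groups and pseudouridines on that precursor, and assembly factors fold and cut it while ribosomal proteins join, so that a small (40S) and a large (60S) subunit leave the nucleus. Blood stem cells are known for a low rate of protein synthesis compared with the progenitors they give rise to.

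RNA was sequenced from 3 sorted bone marrow populations of female mice of the C57BL/6NTac strain, with no transgene or treatment named in the labels. The first was EMCN+ long-term haematopoietic stem cells (LT-HSCs; 4 libraries, mice 1 to 4), the second EMCN- LT-HSCs (3 libraries, mice 1, 2 and 4) and the third granulocyte-monocyte progenitors (GMPs; 4 libraries, mice 1 to 4). EMCN is endomucin, a surface sialomucin known from endothelium, and LT-HSCs were gated after lineage depletion by high levels of Sca-1 and c-Kit, presence of CD150 and absence of CD48. Each LT-HSC library came from 3000 to 5000 cells. The submitters left out the EMCN- library of mouse 3 for its quality. The 57 genes fell into 7 groups by role, namely RNA polymerase I (7 genes), box C/D snoRNP (3), box H/ACA snoRNP (4), nucleolar proteins (4), small subunit (SSU) processome (18), late 40S assembly (5) and 60S assembly (16).

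Libraries held 3.63 to 11.1 M estimated counts, where M is 1e6. Levels are given as CPM, counts per M counts after TMM scaling, and 1 count was worth 0.0697 to 0.235 CPM. All 57 genes were among the 14915 that passed the filter on low counts, and the smallest count of any of them in any library was 50, for Noc4l. TMM factors were 1.17 to 1.31 in EMCN+ LT-HSCs, 1.10 to 1.23 in EMCN- LT-HSCs and 0.668 to 0.757 in GMPs. Mitochondrial ribosomal RNA took 18.0 ± 4.06% of counts in EMCN+ LT-HSCs (SD, n = 4), 18.2 ± 0.762% in EMCN- LT-HSCs (n = 3) and 27.6 ± 1.28% in GMPs (n = 4). The 12 stem cell markers summed to 1709 to 2027, 1224 to 1469.8 and 52.4 to 67.5 CPM in EMCN+ LT-HSCs, EMCN- LT-HSCs and GMPs, and the 12 GMP markers to 492 to 694, 654 to 718 and 17696 to 21832 CPM. Replicates within a population are separate mice, so p-values measure the spread between mice. The main fit has no term for mouse, so libraries of the same mouse from different populations entered it as independent. Fits with mouse as a block are given as alternatives.

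Nucleolin (Ncl), an abundant nucleolar RNA-binding protein, had the most counts of the 57 genes, with 1629 ± 204 CPM in EMCN+ LT-HSCs (SD, n = 4), 1862 ± 199 CPM in EMCN- LT-HSCs (n = 3) and 1823 ± 276 CPM in GMPs (n = 4). Per kb of transcript the histone chaperone nucleophosmin (Npm1) was highest, at 574, 751 and 1241 CPM per kb in the same order. Ncl and Npm1 together made up 40.6%, 41.0% and 38.4% of the summed CPM of the 57 genes in those 3 populations. The median level of the 57 genes was 14.1 CPM per kb in EMCN+ LT-HSCs, 17.6 in EMCN- LT-HSCs and 24.1 in GMPs. The lowest mean per kb belonged to Noc4l in EMCN+ LT-HSCs (5.61 CPM per kb) and to Imp4 in EMCN- LT-HSCs and GMPs (6.17 and 8.24 CPM per kb). Within the other role groups the highest levels per kb were those of Taf1d, Nop56, Nhp2, Wdr43, Ltv1 and Rrp1. The median coefficient of variation of a gene between replicates was 11.8% in EMCN+ LT-HSCs, 11.7% in EMCN- LT-HSCs and 11.6% in GMPs.

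The summed level of the 57 genes was 6268, 5729, 5394 and 5291 CPM in EMCN+ LT-HSCs of mice 1 to 4, and 7321, 6489 and 6264 CPM in EMCN- LT-HSCs of mice 1, 2 and 4. In GMPs of mice 1 to 4 it was 9482, 8262, 7752 and 8628 CPM. All LT-HSC libraries lay below all GMP libraries, and the 2 LT-HSC fractions overlapped at EMCN+ mouse 1 and EMCN- mouse 4. As a share of all counts, with no TMM scaling, the order differed. The 57 genes took 0.617 to 0.817% of the counts in EMCN+ LT-HSCs, 0.711 to 0.897% in EMCN- LT-HSCs and 0.539 to 0.677% in GMPs. In sorted bulk RNA, fewer cells of a kind and less RNA per cell cannot be told apart.

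**Figure D1:**
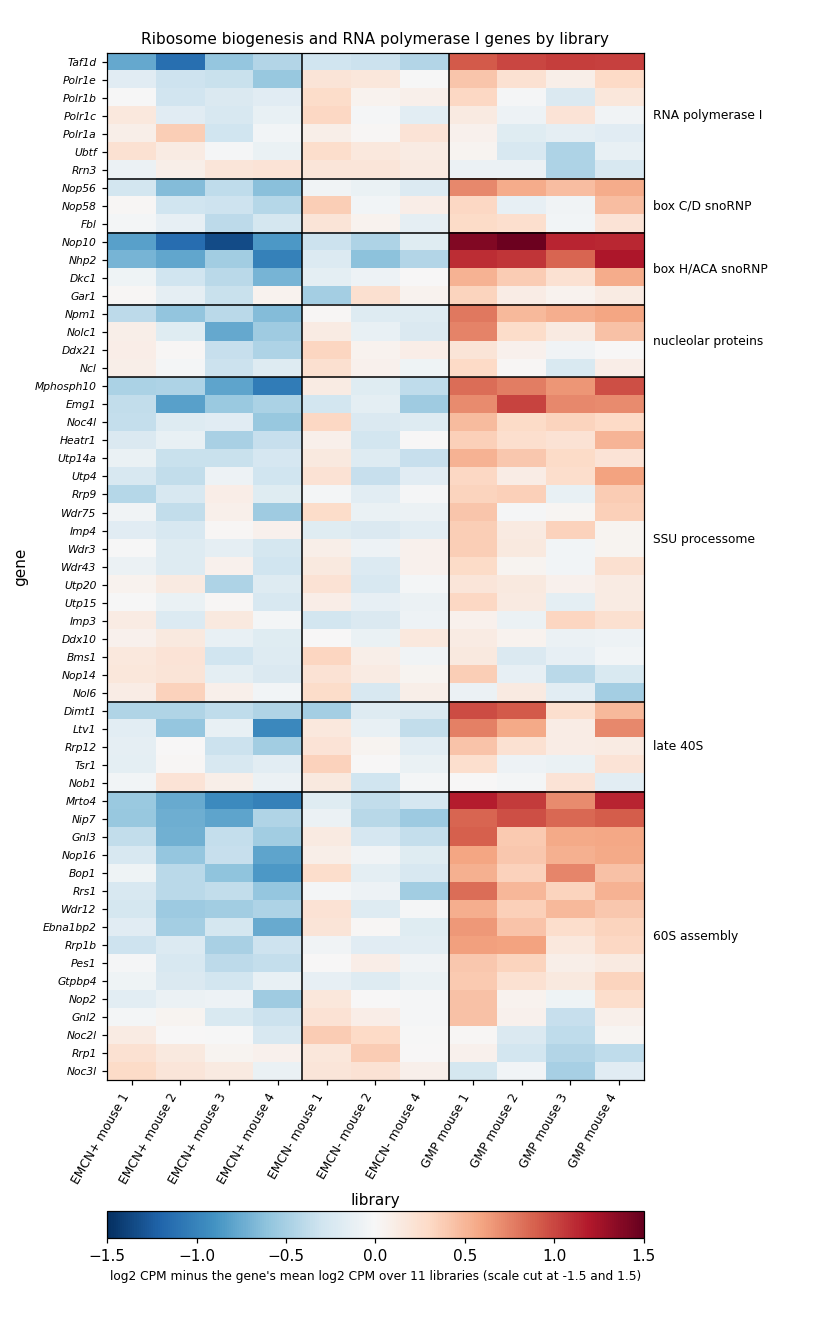
Log2 CPM of each of the 57 genes (rows, grouped by role) in each of the 11 libraries (columns), as the difference from that gene's mean over the 11 libraries. Taf1d, Nop10, Nhp2, Mphosph10, Emg1, Mrto4 and Nip7 form blue blocks in the LT-HSC libraries and red blocks in the GMP libraries, while Rrn3 runs the other way. Ubtf, Noc2l, Rrp1 and Noc3l are lower in GMPs on average, with some LT-HSC libraries inside the GMP range.

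Promoters are shown for 4 of the 7 genes that were lower in EMCN+ LT-HSCs than in GMPs under both scalings described below. The genes were picked by that call, and whether they vary together was not tested. The sequences are the 150 bases upstream of the RefSeq start on GRCm38.p6, 5′ to 3′ on the gene's strand. Capitals mark matches, on either strand, to the E-box CACGTG, to the ETS core, which is the string CCGGAAG, to a CCAAT box or to the GC box, which is the string GGGCGG.
Taf1d (chr9:15306064-15306213, plus strand): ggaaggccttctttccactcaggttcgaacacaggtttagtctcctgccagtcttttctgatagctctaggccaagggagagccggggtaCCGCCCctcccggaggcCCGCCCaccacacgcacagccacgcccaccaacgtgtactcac
Nop10 (chr2:112261776-112261925, plus strand): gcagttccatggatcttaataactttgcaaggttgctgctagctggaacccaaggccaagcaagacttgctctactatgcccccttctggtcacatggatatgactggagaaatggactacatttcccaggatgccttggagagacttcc
Emg1 (chr6:124712179-124712328, minus strand): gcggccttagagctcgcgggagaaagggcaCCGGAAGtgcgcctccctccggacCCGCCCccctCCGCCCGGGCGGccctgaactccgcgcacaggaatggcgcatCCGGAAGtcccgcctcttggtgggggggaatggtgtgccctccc
Nip7 (chr8:107056727-107056876, plus strand): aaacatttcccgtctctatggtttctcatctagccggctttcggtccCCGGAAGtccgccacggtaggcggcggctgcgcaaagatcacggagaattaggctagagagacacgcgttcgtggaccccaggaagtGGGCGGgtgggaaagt
Emg1 and Nip7 hold the ETS core, Taf1d holds GC boxes only, and Nop10 holds none of the 4 motifs in these bases. A promoter of 300 bases (250 before and 50 after the start) was found for 50 of the 57 genes. The ETS core was present in 40% of these 50 promoters and in 20.7% of those of 9593 tested protein-coding genes. CACGTG was present in 18% and 11.7%, its form CCACGTG in 12% and 6.45%, the variant CATGTG in 18% and 10.4%, and GGGCGG in 74% and 68.4%. CCAAT was present in 38% and 43.4%, TATAAA in 4% and 8.77% and TTTCCT in 12% and 27.8%. CCACGTG matches are a subset of CACGTG matches, and a match is a string of letters, not a measured binding site. The 20 genes with the ETS core had a median log2 change of -0.48 in EMCN+ LT-HSCs against GMPs and the 30 without it -0.42. In EMCN- LT-HSCs against GMPs the medians were -0.17 with it and -0.33 without it.

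EMCN+ LT-HSCs were first compared with EMCN- LT-HSCs, which asks whether the fractions of the stem cell gate differ in these genes. Of the 57 genes 2 fell in EMCN+ LT-HSCs and none rose, at an adjusted p under 0.05 in edgeR's quasi-likelihood test with Benjamini-Hochberg adjustment over 14915 genes. The genes that fell were Nop10, of the box H/ACA snoRNP, and Wdr12, of 60S assembly. Over all tested genes 1.19% were lower and 0.771% higher in this comparison, 1.96% in all. The fitted change was negative in 53 of the 57, with a median log2 change of -0.23 against 0.00 over all tested genes. The 4 genes with a positive change were Imp3, Imp4, Nol6 and Nob1, none of which passed the test. An unadjusted p under 0.05 was reached by 19 of the 57, against 13.9% of all tested genes.

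Nop10 encodes the smallest core protein of the box H/ACA snoRNP, which guides pseudouridylation and is also part of telomerase. It lies on chr2:112261926-112263269, plus strand (GRCm38). Nop10 had 25.7, 20.4, 17.7 and 24.8 CPM in EMCN+ LT-HSCs, against 36.0, 32.6 and 39.7 CPM in EMCN- LT-HSCs. Every EMCN+ library lay below every EMCN- library, and the log2 difference was -0.71 ± 0.14 (SE; edgeR adjusted p = 0.0118). Within mice 1, 2 and 4 the EMCN+ library was lower by 0.48, 0.67 and 0.67 on the log2 scale. The call was lost with total-count scaling (edgeR adjusted p = 0.0577), and without EMCN- replicate 1, EMCN+ replicate 2 or EMCN- replicate 4, where the adjusted p was at most 0.0723.

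Wdr12 forms the PeBoW complex with Pes1 and Bop1, which is needed to mature the 60S rRNAs. It lies on chr1:60069785-60098645, minus strand. Wdr12 had 88.5, 73.1, 74.5 and 77.6 CPM in EMCN+ LT-HSCs, against 124, 93.0 and 105 CPM in EMCN- LT-HSCs. The EMCN+ libraries all lay below the EMCN- libraries, with a log2 difference of -0.45 ± 0.11 (edgeR adjusted p = 0.0431). The call was lost in 11 of 22 alternative fits, among them those without EMCN- replicate 1 or 4, EMCN+ replicate 2, 3 or 4, or GMP replicate 2, 3 or 4, with an adjusted p of up to 0.334. Its partners Pes1 and Bop1 had log2 differences of -0.26 ± 0.12 and -0.42 ± 0.18 that did not pass the test (edgeR adjusted p = 0.314 and 0.271).

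The next smallest p-values belonged to Npm1, Mphosph10 and Mrto4. Npm1 had 728, 634, 721 and 612 CPM in EMCN+ LT-HSCs, against 972, 836 and 839 CPM in EMCN- LT-HSCs. Its groups did not overlap, and the log2 difference of -0.39 ± 0.11 missed the threshold (edgeR adjusted p = 0.0680). With mouse as a block Npm1 passed it, at -0.40 ± 0.09 (edgeR adjusted p = 0.0240). Mphosph10, a component of the U3 snoRNP that binds Imp3 and Imp4, had 36.3, 36.8, 29.2 and 24.4 CPM in EMCN+ LT-HSCs, against 55.4, 44.7 and 38.8 CPM in EMCN- LT-HSCs. The fractions did not overlap for Mphosph10, and its log2 difference was -0.54 ± 0.15 (edgeR adjusted p = 0.0687). Mrto4, whose yeast counterpart holds the place of the ribosomal stalk protein P0 on the pre-60S particle, had 17.9, 15.6, 13.6 and 13.1 CPM in EMCN+ LT-HSCs, against 23.3, 20.3 and 22.1 CPM in EMCN- LT-HSCs. It too showed no overlap, with a log2 difference of -0.53 ± 0.16 (edgeR adjusted p = 0.0909).

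Across role groups, the differences between the LT-HSC fractions were small and mostly of 1 sign. Medians of the log2 difference were -0.14 for RNA polymerase I, -0.36 for box C/D, -0.30 for box H/ACA, -0.28 for nucleolar proteins, -0.14 for the SSU processome, -0.23 for late 40S and -0.26 for 60S assembly. All 16 genes of 60S assembly had a negative difference, as did 15 of 18 in the SSU processome. In 11 of the 57 every EMCN+ library lay below every EMCN- library, and in none above, while 6.99% of all tested genes had every EMCN+ library lower. Within mice, 47, 44 and 47 of the 57 were lower in the EMCN+ library of mice 1, 2 and 4, against 48.2%, 50.02% and 49.7% of all tested genes. The EMCN+ library was the lower in all 3 mice for 31 of the 57, against 20.1% of all tested genes. With mouse as a block the genes called lower numbered 3 in all 11 libraries, with Npm1 added, and 5 in the 9 libraries of mice 1, 2 and 4, with Nop56 and Ebna1bp2 added as well. Of all tested genes 1.6% and 1.82% were lower in those 2 fits, against 1.19% without the block. Leaving out EMCN- replicate 1, EMCN+ replicate 2 or EMCN- replicate 4 left none called. The share of all tested genes called lower also fell there, to 0.188%, 0.399% and 0.771%.

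**Figure D2:**
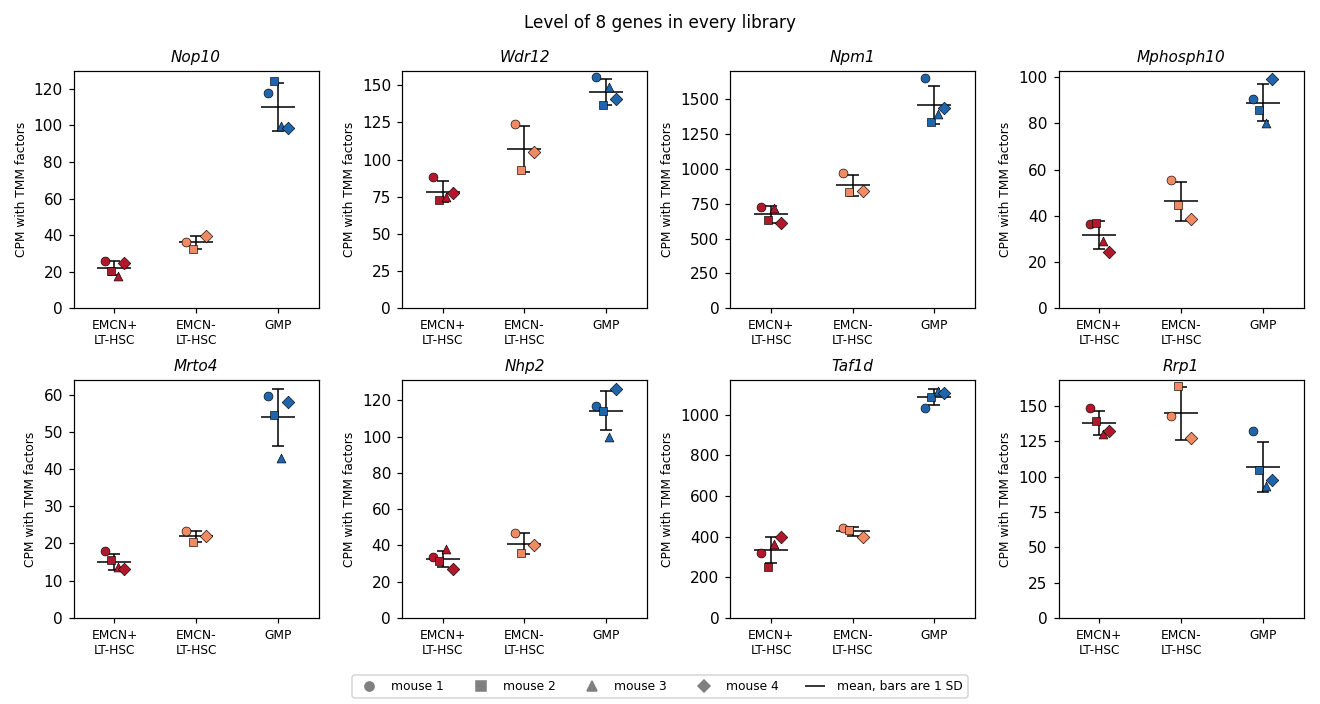
CPM with TMM factors of 8 genes in every library (y axis from 0, 1 panel per gene, x axis the 3 populations), with a marker shape per mouse, the mean as a bar and 1 SD as whiskers. Nop10, Wdr12, Npm1, Mphosph10 and Mrto4 are lowest in EMCN+ LT-HSCs, higher in EMCN- LT-HSCs and highest in GMPs, with no overlap, while Rrp1 is lowest in most GMP libraries.

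Each LT-HSC fraction was then compared with GMPs, which asks how ribosome production genes differ between the stem cells and a downstream progenitor. Of the 57 genes 36 fell and 3 rose in EMCN+ LT-HSCs relative to GMPs, where 29.4% of all tested genes were lower and 31.9% higher (61.3% in all). In EMCN- LT-HSCs 23 fell and 5 rose, where 24.4% of all tested genes were lower and 28.3% higher (52.7% in all). The median log2 change of the 57 was -0.43 in EMCN+ LT-HSCs, against 0.04 over all tested genes, and -0.23 in EMCN- LT-HSCs, against 0.03. The 2 comparisons share the GMP libraries. All 23 genes called lower in EMCN- LT-HSCs were among the 36 called lower in EMCN+ LT-HSCs. The other 13 were Polr1e, Fbl, Nop58, Nolc1, Utp4, Wdr43, Wdr75, Wdr3, Rrp9, Noc4l, Rrp12, Pes1 and Nop2, and for none of them did the difference between the LT-HSC fractions itself pass the test. With mouse as a block Nolc1 and Pes1 were called lower in EMCN- LT-HSCs as well, in 11 and in 9 libraries, with edgeR adjusted p of at most 3.09e-04 for Nolc1 and 0.0359 for Pes1. In the 9 libraries of mice 1, 2 and 4 the block also called Utp4 and Rrp9 there (edgeR adjusted p = 0.0451 and 0.0376).

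These counts depend on the scaling. Scaled to total counts alone, the median of all tested genes moved to 0.86 in EMCN+ LT-HSCs and 0.75 in EMCN- LT-HSCs relative to GMPs. Under that scaling 32 of the 57 genes were called higher and 7 lower in EMCN+ LT-HSCs, and 30 higher and 6 lower in EMCN- LT-HSCs. Relative to the median of all tested genes, the median of the 57 was -0.47 in EMCN+ and -0.26 in EMCN- LT-HSCs. These values were nearly the same with either scaling. A change of scaling shifts all genes by nearly the same amount, so that agreement was fixed in advance and is no separate check. The 7 called lower in EMCN+ LT-HSCs under both scalings were Taf1d, Nhp2, Nop10, Mphosph10, Emg1, Mrto4 and Nip7, and all of these but Mphosph10 were called lower under both in EMCN- LT-HSCs. Of the 36 called lower in EMCN+ LT-HSCs with TMM, 11 were called higher with total-count scaling. They were Fbl, Nop58, Wdr43, Wdr75, Wdr3, Rrp9, Imp4, Rrp12, Pes1, Nop2 and Gtpbp4. In EMCN- LT-HSCs 1 of the 23 was, namely Gtpbp4. Changes against GMPs are therefore given below as relative to the bulk of the transcriptome.

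Of the RNA polymerase I group, Taf1d and Polr1e fell in EMCN+ LT-HSCs and Taf1d alone fell in EMCN- LT-HSCs. These are 28.6% and 14.3% of the group, no more than the 29.4% and 24.4% of all tested genes called lower. Taf1d is a subunit of selectivity factor SL1, which recognises the ribosomal DNA promoter. Taf1d had 319, 249, 363 and 400.3 CPM in EMCN+ LT-HSCs and 444, 435 and 399.9 CPM in EMCN- LT-HSCs, against 1034, 1089, 1118 and 1109 CPM in GMPs. Its LT-HSC libraries all lay far below its GMP libraries, with log2 changes of -1.71 ± 0.12, adjusted p = 9.61e-11 in EMCN+ and -1.35 ± 0.13, adjusted p = 2.33e-08 in EMCN- LT-HSCs (edgeR). Taf1d hosts 8 annotated small nucleolar RNAs (snoRNAs), so reads of those RNAs may be counted with it. Polr1e, a subunit peripheral to the polymerase core, had 15.8, 14.3, 14.0 and 11.9 CPM in EMCN+ LT-HSCs and 20.3, 20.0 and 17.6 CPM in EMCN- LT-HSCs, against 23.7, 20.7, 18.9 and 21.8 CPM in GMPs. All EMCN+ libraries lay below all GMP libraries while EMCN- libraries overlapped with them, with log2 changes of -0.60 ± 0.15, adjusted p = 0.00189 in EMCN+ and -0.14 ± 0.17, adjusted p = 0.516 in EMCN- LT-HSCs (edgeR).

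The initiation factors Rrn3 and Ubtf ran the other way. Rrn3 (TIF-IA) couples the polymerase to the promoter-bound factors, and it had 38.7, 43.7, 46.3 and 47.1 CPM in EMCN+ LT-HSCs and 46.7, 46.3 and 45.1 CPM in EMCN- LT-HSCs, against 38.5, 38.5, 29.8 and 34.7 CPM in GMPs. It rose in both fractions, by 0.31 ± 0.12 in EMCN+ (edgeR adjusted p = 0.0281) and 0.38 ± 0.13 in EMCN- LT-HSCs (adjusted p = 0.0168), and every LT-HSC library lay above every GMP library. Ubtf (UBF) binds along the ribosomal DNA, and it had 171, 158, 143 and 135 CPM in EMCN+ LT-HSCs and 175, 163 and 158 CPM in EMCN- LT-HSCs, against 149, 123, 105 and 135 CPM in GMPs. Ubtf rose in EMCN- LT-HSCs (0.37 ± 0.12, adjusted p = 0.0137 in edgeR) and missed the threshold in EMCN+ LT-HSCs (0.25 ± 0.11, adjusted p = 0.0598), where the ranges overlap with that of GMPs. In EMCN+ LT-HSCs Ubtf was called higher in 7 of 22 alternative fits, among them the block by mouse in 11 libraries (edgeR adjusted p = 0.0201), DESeq2, RLE factors and the fits without GMP replicate 1 or EMCN+ replicate 4. The call for Rrn3 was lost without GMP replicate 3 in both comparisons, without EMCN- replicate 2 in both, and without EMCN+ replicate 3, EMCN+ replicate 4 or GMP replicate 4 in EMCN+ LT-HSCs, with an edgeR adjusted p of at most 0.105. It was also lost in both with mouse as a block in 9 libraries (edgeR adjusted p = 0.170 in EMCN+ and 0.0524 in EMCN- LT-HSCs) and with the length correction described below. The EMCN- call for Ubtf was lost without EMCN- replicate 1 or GMP replicate 3 (edgeR adjusted p of at most 0.0589) and with the length correction. The catalytic subunits Polr1a and Polr1b and the subunit Polr1c, which RNA polymerase III shares, were not called in either fraction, with log2 changes between -0.25 and 0.21.

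The box C/D snoRNP places methyl groups on rRNA riboses. Its 3 genes all fell in EMCN+ LT-HSCs, while Nop56 alone fell in EMCN- LT-HSCs. The share lower was thus 100% and 33.3%, against 29.4% and 24.4% of all tested genes. Nop56, a core scaffold protein, had 117, 90.0, 108 and 91.7 CPM in EMCN+ LT-HSCs and 136, 132 and 123 CPM in EMCN- LT-HSCs, against 233, 208, 195 and 208 CPM in GMPs. The 3 populations did not overlap for Nop56, with log2 changes of -1.05 ± 0.10, adjusted p = 2.00e-08 in EMCN+ and -0.69 ± 0.11, adjusted p = 2.68e-05 in EMCN- LT-HSCs (edgeR). Fibrillarin (Fbl), the methyltransferase of the particle, had 97.7, 91.6, 76.0 and 83.3 CPM in EMCN+ LT-HSCs and 114, 104 and 90.7 CPM in EMCN- LT-HSCs, against 122, 118, 96.8 and 115 CPM in GMPs. EMCN+ and GMP libraries overlapped for Fbl, whose log2 change was -0.38 ± 0.11, adjusted p = 0.00552 in EMCN+ and -0.14 ± 0.12, adjusted p = 0.363 in EMCN- LT-HSCs (edgeR). Nop58, the paralogue of Nop56, had 159, 127, 126 and 117 CPM in EMCN+ LT-HSCs and 202, 153 and 169 CPM in EMCN- LT-HSCs, against 195, 145, 151 and 216 CPM in GMPs. Its changes were -0.42 ± 0.14, adjusted p = 0.0119 in EMCN+ and -0.02 ± 0.15, adjusted p = 0.931 in EMCN- LT-HSCs (edgeR), and its EMCN+ call was lost without GMP replicate 4 (adjusted p = 0.0547).

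The box H/ACA snoRNP showed the largest changes of any role group, with median log2 changes of -1.29 in EMCN+ and -0.99 in EMCN- LT-HSCs. Nop10, Nhp2 and Dkc1 fell in both fractions and Gar1 in neither. That is 75% of the group in each, against 29.4% of all tested genes in EMCN+ and 24.4% in EMCN- LT-HSCs. Nop10 had 118, 125, 99.7 and 98.5 CPM in GMPs, where no LT-HSC library was above 39.7 CPM. Its log2 changes were -2.32 ± 0.13, adjusted p = 4.15e-12 in EMCN+ and -1.61 ± 0.14, adjusted p = 6.75e-09 in EMCN- LT-HSCs (edgeR). Nhp2, an RNA-binding core protein of the particle on chr11:51619735-51623714, plus strand, had 33.5, 31.6, 37.8 and 26.8 CPM in EMCN+ LT-HSCs and 47.0, 35.5 and 40.2 CPM in EMCN- LT-HSCs, against 117, 114, 99.7 and 126 CPM in GMPs. Every LT-HSC library of Nhp2 was below every GMP library, and the log2 changes were -1.81 ± 0.12, adjusted p = 5.84e-11 in EMCN+ and -1.48 ± 0.14, adjusted p = 1.08e-08 in EMCN- LT-HSCs (edgeR). Dyskerin (Dkc1) is the pseudouridine synthase of the particle. It had 89.3, 75.7, 70.4 and 57.7 CPM in EMCN+ LT-HSCs and 84.1, 88.2 and 93.5 CPM in EMCN- LT-HSCs, against 134, 121, 109 and 137 CPM in GMPs. Again no LT-HSC library reached the GMP range, with log2 changes of -0.77 ± 0.12, adjusted p = 9.99e-06 in EMCN+ and -0.50 ± 0.13, adjusted p = 0.00270 in EMCN- LT-HSCs (edgeR). Gar1, the remaining core protein, had 16.9, 15.2, 13.3 and 17.4 CPM in EMCN+ LT-HSCs and 11.8, 19.7 and 17.4 CPM in EMCN- LT-HSCs, against 21.1, 18.1, 17.3 and 18.3 CPM in GMPs, with overlapping ranges and no call (edgeR adjusted p = 0.208 in EMCN+ and 0.394 in EMCN- LT-HSCs).

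Among the nucleolar proteins Npm1 fell in both fractions and Nolc1 in EMCN+ LT-HSCs. This was 50% of the group in EMCN+ and 25% in EMCN- LT-HSCs, against 29.4% and 24.4% of all tested genes. Npm1 had 1653, 1340.1, 1398 and 1437 CPM in GMPs, above all LT-HSC libraries, of which the highest had 972 CPM. Its log2 changes were -1.11 ± 0.10, adjusted p = 5.24e-09 in EMCN+ and -0.72 ± 0.11, adjusted p = 1.05e-05 in EMCN- LT-HSCs (edgeR). Npm1 has 8 near-identical copies elsewhere in the genome, which held a further 3.77% of its own counts. Nolc1, a chaperone that binds both classes of snoRNP, had 118, 97.8, 65.4 and 76.4 CPM in EMCN+ LT-HSCs and 121, 103 and 95.9 CPM in EMCN- LT-HSCs, against 186, 134, 122 and 150.4 CPM in GMPs. LT-HSC and GMP ranges did not overlap for Nolc1, and its log2 changes were -0.73 ± 0.18, adjusted p = 0.00283 in EMCN+ and -0.48 ± 0.19, adjusted p = 0.0546 in EMCN- LT-HSCs (edgeR). In EMCN- LT-HSCs Nolc1 was called lower in 12 of 22 alternative fits, among them both blocks by mouse, DESeq2, the fit without robust dispersion and those without EMCN+ replicate 1 or 3 or GMP replicate 3. Ncl and the RNA helicase Ddx21 were called in neither fraction, with edgeR log2 changes of -0.16 ± 0.12 and -0.21 ± 0.12 in EMCN+ and 0.03 ± 0.13 and 0.11 ± 0.13 in EMCN- LT-HSCs. Ddx21 was called lower in EMCN+ LT-HSCs with mouse as a block in 11 libraries and without EMCN+ replicate 1 (edgeR adjusted p = 0.0460 and 0.0372).

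**Figure D3:**
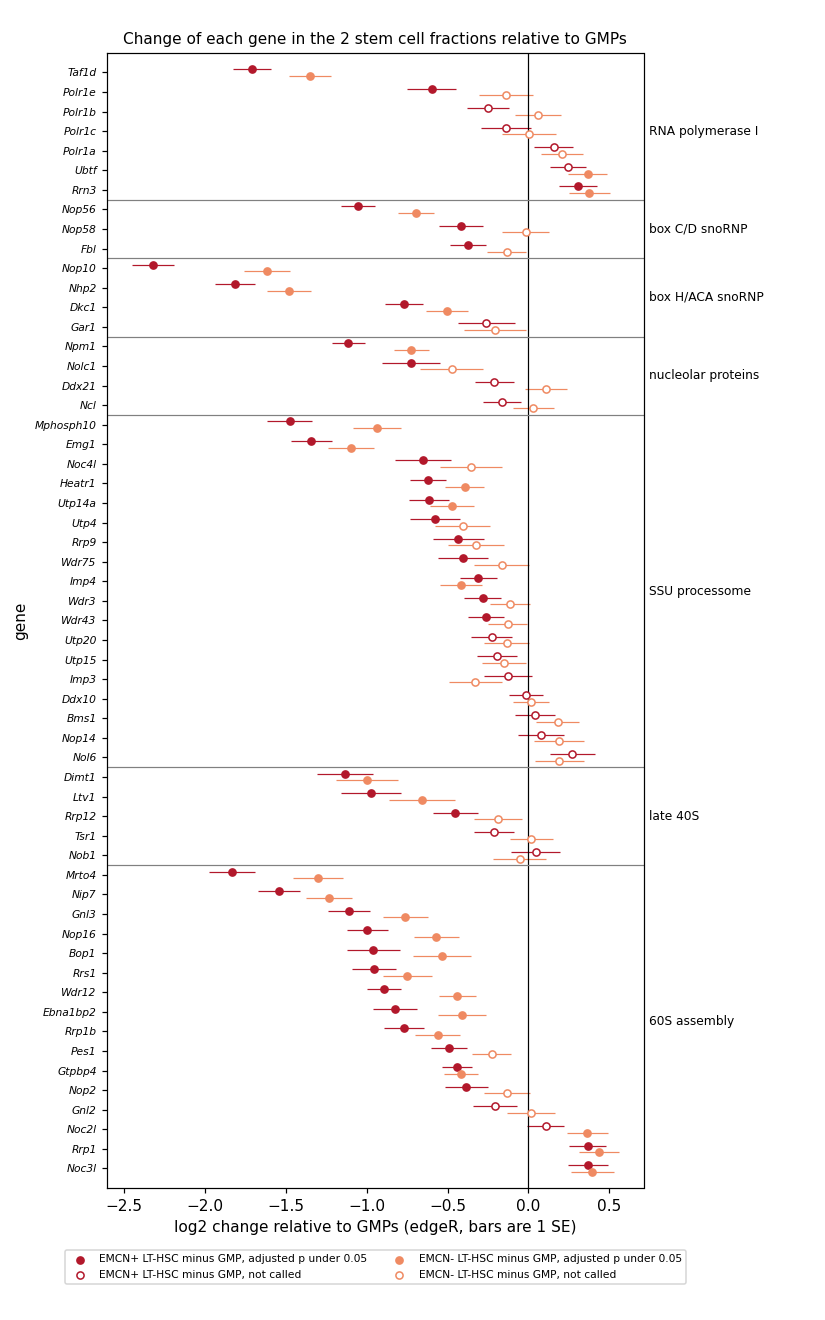
Log2 change (x axis, bars 1 SE, edgeR) of each of the 57 genes (y axis, by role) in EMCN+ LT-HSCs and EMCN- LT-HSCs relative to GMPs, with filled points where the adjusted p was under 0.05. Points run from -2.32 for Nop10 in EMCN+ LT-HSCs to 0.44 for Rrp1 in EMCN- LT-HSCs, and the EMCN+ point is left of the EMCN- point for most genes.

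The SSU processome is the large particle that forms on the 5′ part of the precursor. Of its 18 genes 11 fell in EMCN+ LT-HSCs and 5 in EMCN- LT-HSCs, with none higher. The share lower was 61.1% in EMCN+ LT-HSCs, against 29.4% of all tested genes. In EMCN- LT-HSCs it was 27.8%, near the 24.4% of all tested genes. The 5 called in both fractions were Mphosph10, Emg1, Heatr1, Utp14a and Imp4. Mphosph10 had 90.4, 86.0, 80.1 and 99.1 CPM in GMPs, above every LT-HSC library, with log2 changes of -1.48 ± 0.14, adjusted p = 8.20e-09 in EMCN+ and -0.94 ± 0.15, adjusted p = 2.12e-05 in EMCN- LT-HSCs (edgeR). Emg1 is the methyltransferase that modifies a pseudouridine of 18S rRNA. It had 32.2, 23.6, 28.3 and 29.9 CPM in EMCN+ LT-HSCs and 34.3, 37.6 and 28.7 CPM in EMCN- LT-HSCs, against 68.0, 83.6, 68.5 and 67.7 CPM in GMPs. Every LT-HSC library of Emg1 was below every GMP library, with log2 changes of -1.34 ± 0.13, adjusted p = 1.04e-08 in EMCN+ and -1.10 ± 0.14, adjusted p = 1.21e-06 in EMCN- LT-HSCs (edgeR). Heatr1, a scaffold protein that is also needed for precursor transcription, had 73.6, 79.2, 60.8 and 67.2 CPM in EMCN+ LT-HSCs and 90.0, 70.7 and 85.8 CPM in EMCN- LT-HSCs, against 109, 102, 99.5 and 121 CPM in GMPs. The LT-HSC and GMP ranges of Heatr1 did not overlap, and its log2 changes were -0.62 ± 0.11, adjusted p = 6.13e-05 in EMCN+ and -0.40 ± 0.12, adjusted p = 0.00952 in EMCN- LT-HSCs (edgeR). Utp14a, which activates a helicase of the particle in yeast, had 38.9, 33.1, 33.2 and 35.2 CPM in EMCN+ LT-HSCs and 46.2, 36.7 and 32.9 CPM in EMCN- LT-HSCs, against 59.9, 55.5, 51.0 and 48.1 CPM in GMPs, with log2 changes of -0.61 ± 0.12, adjusted p = 2.10e-04 in EMCN+ and -0.47 ± 0.14, adjusted p = 0.00621 in EMCN- LT-HSCs (edgeR). Wdr43, the highest of the group per kb, had 145 ± 15.4, 159.7 ± 20.1 and 174 ± 18.9 CPM in EMCN+ LT-HSCs, EMCN- LT-HSCs and GMPs (SD, n = 4, 3 and 4). The changes of Wdr43 were -0.26 ± 0.11, adjusted p = 0.0452 in EMCN+ and -0.13 ± 0.12, adjusted p = 0.395 in EMCN- LT-HSCs (edgeR), and its EMCN+ call was lost in 11 of 22 alternative fits. The EMCN+ call for Imp4 was lost in 7 of 22 alternative fits, among them those without EMCN+ replicate 1 or 2 or GMP replicate 1 or 3 (edgeR adjusted p of at most 0.0888) and the block by mouse in 9 libraries (0.0507). The EMCN- call for Heatr1 was lost without EMCN- replicate 2 (edgeR adjusted p = 0.0562). In EMCN+ LT-HSCs the call for Wdr75 was lost without GMP replicate 1 or 4 or EMCN+ replicate 2 or 4 (edgeR adjusted p of at most 0.0993), and that for Wdr3 without GMP replicate 1 or 2 or EMCN+ replicate 2, 3 or 4 (at most 0.150). That for Rrp9 was lost without EMCN+ replicate 1 or 2 or GMP replicate 2 or 4 (edgeR adjusted p of at most 0.0769). The 7 genes of the SSU processome called in neither fraction were Utp15, Utp20, Imp3, Nop14, Nol6, Bms1 and Ddx10.

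Of the 5 late 40S genes, Dimt1, Ltv1 and Rrp12 fell in EMCN+ LT-HSCs and Dimt1 and Ltv1 in EMCN- LT-HSCs. These make up 60% and 40% of the group, against 29.4% and 24.4% of all tested genes. Dimt1, which dimethylates adenosines near the end of 18S rRNA, had 12.5, 12.6, 13.1 and 12.5 CPM in EMCN+ LT-HSCs and 12.1, 15.0 and 14.8 CPM in EMCN- LT-HSCs, against 33.8, 32.5, 20.5 and 24.1 CPM in GMPs. Its GMP libraries were spread more widely than its LT-HSC libraries but all lay above them, with log2 changes of -1.13 ± 0.17, adjusted p = 7.60e-06 in EMCN+ and -0.997 ± 0.19, adjusted p = 1.68e-04 in EMCN- LT-HSCs (edgeR). Ltv1, an export and maturation factor of the pre-40S particle, had 38.0, 28.5, 39.2 and 21.7 CPM in EMCN+ LT-HSCs and 47.3, 39.2 and 32.9 CPM in EMCN- LT-HSCs, against 71.9, 63.2, 45.8 and 70.4 CPM in GMPs. EMCN+ libraries of Ltv1 lay below GMP libraries while EMCN- mouse 1 overlapped with GMP mouse 3. Its log2 changes were -0.97 ± 0.19, adjusted p = 2.77e-04 in EMCN+ and -0.65 ± 0.20, adjusted p = 0.0132 in EMCN- LT-HSCs (edgeR), and the EMCN- call was lost without EMCN- replicate 4. Rrp12, whose yeast counterpart serves the export of both subunits, had 28.9, 31.9, 25.4 and 22.1 CPM in EMCN+ LT-HSCs and 36.7, 32.8 and 28.4 CPM in EMCN- LT-HSCs, against 42.6, 37.2, 34.4 and 34.7 CPM in GMPs. Its log2 changes were -0.45 ± 0.14, adjusted p = 0.00702 in EMCN+ and -0.19 ± 0.15, adjusted p = 0.314 in EMCN- LT-HSCs (edgeR). Nob1, the endonuclease that makes the 3′ end of 18S rRNA, and Tsr1 were called in neither fraction.

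The 60S assembly group had 12 of 16 genes lower and 2 higher in EMCN+ LT-HSCs, and 10 lower and 3 higher in EMCN- LT-HSCs. The share lower was 75% and 62.5%, against 29.4% and 24.4% of all tested genes. The share higher was 12.5% and 18.8%, against 31.9% and 28.3%. Mrto4 had 59.8, 54.7, 43.0 and 58.0 CPM in GMPs, more than 1.5 times its highest LT-HSC library, with log2 changes of -1.83 ± 0.14, adjusted p = 4.04e-10 in EMCN+ and -1.30 ± 0.15, adjusted p = 4.29e-07 in EMCN- LT-HSCs (edgeR). Nip7, a factor for processing the 3′ side of the precursor that works with Nop2 in yeast, had 19.4, 17.3, 16.6 and 21.1 CPM in EMCN+ LT-HSCs and 27.1, 21.6 and 19.7 CPM in EMCN- LT-HSCs, against 52.8, 56.1, 52.4 and 54.1 CPM in GMPs. All LT-HSC libraries of Nip7 lay below all GMP libraries, and the log2 changes were -1.54 ± 0.13, adjusted p = 1.52e-09 in EMCN+ and -1.23 ± 0.14, adjusted p = 3.06e-07 in EMCN- LT-HSCs (edgeR). Nucleostemin (Gnl3), a nucleolar GTPase named for its abundance in stem cells, had 69.9, 54.5, 70.6 and 62.5 CPM in EMCN+ LT-HSCs and 99.3, 75.6 and 70.2 CPM in EMCN- LT-HSCs, against 168, 118, 134 and 134 CPM in GMPs. Gnl3 was lower in every LT-HSC library than in any GMP library, with log2 changes of -1.11 ± 0.13, adjusted p = 2.27e-07 in EMCN+ and -0.76 ± 0.14, adjusted p = 1.17e-04 in EMCN- LT-HSCs (edgeR). Wdr12 had 156, 136, 149 and 141 CPM in GMPs, above all LT-HSC libraries, and changed by -0.89 ± 0.11 in EMCN+ and -0.44 ± 0.11 in EMCN- LT-HSCs (edgeR adjusted p = 2.65e-07 and 0.00278). Its partner Bop1 fell in both fractions, by 0.96 ± 0.16 in EMCN+ and 0.53 ± 0.18 in EMCN- LT-HSCs, and Pes1 fell in EMCN+ LT-HSCs, by 0.49 ± 0.11. In EMCN- LT-HSCs the change of Pes1 was -0.23 ± 0.12, adjusted p = 0.119, and with mouse as a block it passed the test (edgeR adjusted p of at most 0.0359). The difference between the LT-HSC fractions did not pass the test for either. Nop16, Rrs1, Ebna1bp2, Rrp1b and Gtpbp4 also fell in both fractions. With total-count scaling Gtpbp4 was instead called higher, by 0.38 in EMCN+ and 0.30 in EMCN- LT-HSCs (edgeR adjusted p = 0.00647 and 0.0455). It was 1 of the 11 genes for which that scaling turned the EMCN+ call around. The EMCN- call was lost for Bop1 without EMCN- replicate 2 or 4 (edgeR adjusted p of at most 0.0761), for Ebna1bp2 without GMP replicate 1 or EMCN- replicate 2 or 4 (at most 0.119) and for Nop16 with the length correction. The EMCN+ call for Nop2 was lost without GMP replicate 1 or EMCN+ replicate 4 (edgeR adjusted p of at most 0.0720).

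Rrp1 and Noc3l of the 60S group rose in both fractions and Noc2l in EMCN- LT-HSCs. Rrp1, whose yeast counterpart is an early pre-60S factor, had 149, 139.7, 130.3 and 133 CPM in EMCN+ LT-HSCs and 143, 164 and 127 CPM in EMCN- LT-HSCs, against 132, 105, 93.1 and 97.4 CPM in GMPs. GMP mouse 1 reached into the LT-HSC range and the other 3 GMP libraries lay below it, with log2 changes of 0.37 ± 0.11, adjusted p = 0.00911 in EMCN+ and 0.44 ± 0.12, adjusted p = 0.00541 in EMCN- LT-HSCs (edgeR). Noc3l had 50.0, 46.6, 45.0 and 38.3 CPM in EMCN+ LT-HSCs and 46.7, 47.6 and 43.2 CPM in EMCN- LT-HSCs, against 34.1, 39.8, 29.1 and 36.4 CPM in GMPs. Noc3l rose by 0.37 ± 0.12 in EMCN+ (edgeR adjusted p = 0.0124) and 0.39 ± 0.13 in EMCN- LT-HSCs (adjusted p = 0.0169), and only EMCN+ mouse 4 overlapped with the GMP libraries. Noc2l, which in yeast pairs with Noc3 on the pre-60S particle, had 167, 153, 152 and 129.8 CPM in EMCN+ LT-HSCs and 199, 188 and 153 CPM in EMCN- LT-HSCs, against 155, 131, 118 and 156 CPM in GMPs. EMCN- mouse 4 lay within the GMP range, and the changes were 0.11 ± 0.12, adjusted p = 0.449 in EMCN+ and 0.36 ± 0.12, adjusted p = 0.0181 in EMCN- LT-HSCs (edgeR). Noc2l shares over 10% of its exon bases with a gene on the opposite strand, as do Wdr3, Tsr1, Dimt1 and Utp14a, and whether the counting used strand is not given in the sources used here. Each of these calls against GMPs was lost without at least 1 library, namely GMP replicate 3 for Noc3l in both fractions, EMCN- replicate 2 for Noc3l and Rrp1 in EMCN- LT-HSCs, and EMCN- replicate 1 or 2 or GMP replicate 2 or 3 for Noc2l, with an edgeR adjusted p of at most 0.101. The exception was Rrp1 in EMCN+ LT-HSCs. The calls for Noc3l and Noc2l were also lost with the length correction, and that for Noc3l in EMCN+ LT-HSCs with mouse as a block in 9 libraries (edgeR adjusted p = 0.0558). Genes called higher ranged from 1 to 4 in EMCN+ and 1 to 6 in EMCN- LT-HSCs when single libraries were left out. The lowest counts were without GMP replicate 3 in both comparisons and without EMCN- replicate 2 in the second.

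The 16 genes called in neither fraction were Polr1a, Polr1b, Polr1c, Gar1, Ncl, Ddx21, Utp15, Utp20, Imp3, Nop14, Nol6, Bms1, Ddx10, Nob1, Tsr1 and Gnl2. They include the largest polymerase subunits and the most abundant of the 57 genes, Ncl. In the 9 libraries of mice 1, 2 and 4 the block by mouse called Polr1b, Utp15 and Gnl2 lower in EMCN+ LT-HSCs (edgeR adjusted p of at most 0.0427). In EMCN+ LT-HSCs 29 of the 57 had every library below every GMP library and 1 above, against 27.7% and 29.6% of all tested genes. Mean levels followed the order EMCN+ LT-HSCs, EMCN- LT-HSCs, GMPs, low to high, in 39 of the 57 (68.4%), against 29.9% of all tested genes.

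Changes against GMPs went with transcript length, in the 57 genes and in the table as a whole. The 57 genes were split at 2050 and 3295 bases into 19 short, 19 middle and 19 long ones. Their median log2 changes in EMCN+ LT-HSCs were -0.995, -0.61 and -0.23, against -0.44, 0.11 and 0.41 for all tested protein-coding genes of the same length. In EMCN- LT-HSCs they were -0.69, -0.41 and -0.02, against -0.35, 0.09 and 0.33. Across genes, which are not independent replicates and share libraries, Spearman's rho between length and change in EMCN+ LT-HSCs was 0.46 over the 57 and 0.33 over 12098 protein-coding genes. In EMCN- LT-HSCs rho was 0.51 and 0.31. Between the LT-HSC fractions it was 0.33 and 0.27. Taf1d, Nhp2, Nop10, Emg1 and Mrto4 all have a median transcript length near 1 kb. With a length correction chosen after seeing the data, 43 of the 57 were lower and 3 higher in EMCN+ LT-HSCs, and 32 lower and 1 higher in EMCN- LT-HSCs. Under this correction 31.1% of all tested genes were lower and 28.3% higher in EMCN+, and 26.8% and 24.6% in EMCN- LT-HSCs. Genes it added in EMCN+ LT-HSCs were Polr1a, Polr1b, Ncl, Ddx21, Utp15, Utp20, Bms1, Ddx10 and Tsr1, called lower, and Polr1c and Imp3, called higher. It removed the calls for Rrn3, Noc3l, Fbl and Rrp9 there. Between the LT-HSC fractions 2 were lower, Nop10 and Wdr12.

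**Figure D4:**
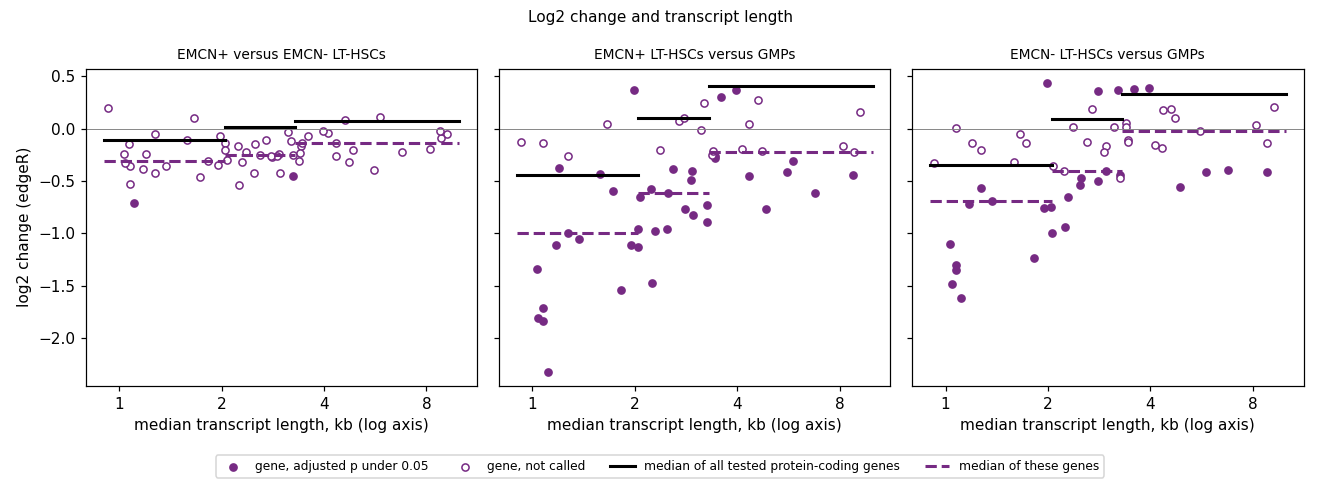
Log2 change (y axis, edgeR) of the 57 genes against median transcript length in kb (log x axis) for the 3 comparisons, with filled points where the adjusted p was under 0.05. Dashed lines are the medians of the 57 genes and solid lines those of all tested protein-coding genes in the same length classes, and each dashed line lies below its solid line.

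Other genes of ribosome production were read from lists of RNA polymerase I, 40S and 60S assembly genes that hold none of the 57. None of the 13 other RNA polymerase I genes, 39 other 40S genes and 50 other 60S genes passed the test between EMCN+ and EMCN- LT-HSCs, with median log2 changes of -0.19, -0.15 and -0.14. In EMCN+ LT-HSCs relative to GMPs 9 of 13, 18 of 39 and 27 of 50 were lower and 0, 2 and 3 were higher, with medians of -0.67, -0.32 and -0.36. Of all tested genes 29.4% were lower and 31.9% higher in that comparison. In EMCN- LT-HSCs 7, 15 and 20 were lower and 0, 4 and 3 higher, with medians of -0.52, -0.21 and -0.18, where 24.4% of all tested genes were lower and 28.3% higher. Polr2k, a small subunit shared by the 3 nuclear polymerases, averaged 6.75 ± 1.13 CPM in EMCN+ LT-HSCs, 11.3 ± 2.56 CPM in EMCN- LT-HSCs and 46.0 ± 6.33 CPM in GMPs (SD). Its log2 change was -2.75 ± 0.17, adjusted p = 1.85e-11 in EMCN+ and -2.01 ± 0.19, adjusted p = 1.53e-08 in EMCN- LT-HSCs (edgeR). Polr1d, a subunit of RNA polymerases I and III, changed by -1.80 ± 0.11, adjusted p = 1.90e-11 in EMCN+ and -1.42 ± 0.13, adjusted p = 5.94e-09 in EMCN- LT-HSCs (edgeR). Fcf1, a small subunit processing factor, averaged 26.8 ± 1.29, 29.4 ± 4.24 and 83.3 ± 12.5 CPM in EMCN+ LT-HSCs, EMCN- LT-HSCs and GMPs, with log2 changes of -1.64 ± 0.13, adjusted p = 4.36e-10 in EMCN+ and -1.51 ± 0.14, adjusted p = 1.44e-08 in EMCN- LT-HSCs (edgeR). Rpf2, which brings the 5S ribonucleoprotein into the pre-60S particle with Rrs1, averaged 11.9 ± 1.70, 16.6 ± 0.809 and 45.8 ± 5.84 CPM, and changed by -1.95 ± 0.14, adjusted p = 2.36e-10 in EMCN+ and -1.46 ± 0.16, adjusted p = 1.34e-07 in EMCN- LT-HSCs (edgeR). Cinp, Bud23, a methyltransferase of 18S rRNA, and the nucleolar protein Lyar fell in both fractions, by 1.69 ± 0.16, 1.46 ± 0.15 and 1.32 ± 0.14 in EMCN+ and 1.35 ± 0.17, 1.35 ± 0.16 and 1.02 ± 0.15 in EMCN- LT-HSCs on the log2 scale. Nop53 ran against most of its list, with 175 ± 11.5, 171 ± 6.36 and 104 ± 10.6 CPM and changes of 0.75 ± 0.10, adjusted p = 9.72e-07 in EMCN+ and 0.72 ± 0.10, adjusted p = 6.69e-06 in EMCN- LT-HSCs (edgeR).

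Of the 57 genes 8 host 29 annotated snoRNAs, of which 14 in 5 hosts passed the filter. None of the 14 passed the test between EMCN+ and EMCN- LT-HSCs. In EMCN+ LT-HSCs relative to GMPs 4 of the 14 fell and none rose (Snord11, Snora75, Gm22620 and Gm24916), a share near the 29.4% of all tested genes that were lower, and in EMCN- LT-HSCs none was called (edgeR). Their summed level varied widely within groups, with 37.5, 76.4, 14.9 and 67.0 CPM in EMCN+ LT-HSCs, 18.4, 191 and 94.4 CPM in EMCN- LT-HSCs and 95.1, 222, 173 and 92.9 CPM in GMPs.

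Cell cycle genes moved beside these genes. Against GMPs 29.4% of all tested genes were lower and 31.9% higher in EMCN+ LT-HSCs, and 24.4% and 28.3% in EMCN- LT-HSCs. Of 30 S phase genes 28 were lower and 1 higher in EMCN+ LT-HSCs relative to GMPs, and 25 lower and 2 higher in EMCN- LT-HSCs. Between the fractions 3 were lower in EMCN+ LT-HSCs, against 1.19% of all tested genes. The summed level of the S phase genes was 1544 to 2166 CPM in EMCN+ LT-HSCs, 2128 to 2569 CPM in EMCN- LT-HSCs and 3449 to 4201 CPM in GMPs. Of 28 genes of G2 and M phase 26 were lower in EMCN+ and 23 in EMCN- LT-HSCs relative to GMPs, and none was called between the LT-HSC fractions. Their summed level was 570.4 to 1065 CPM, 778 to 1199 CPM and 1649 to 2852 CPM in the same order. Markers of 6 other cell types were summed as well. In EMCN+ LT-HSCs, EMCN- LT-HSCs and GMPs, 10 neutrophil markers reached 3.01 to 5.46, 2.35 to 4.36 and 127 to 533 CPM, with Ly6g at 0 in all 3. The 12 erythroid markers reached 388 to 484, 444 to 520 and 52.4 to 170.4 CPM, with Car1 at 0 in EMCN+ LT-HSCs. Most of the erythroid sum was Car2, at 418, 466 and 28.6 CPM on average in the same order. Of 11 erythroid markers tested, 8 were lower and 2 higher in EMCN+ and 6 lower and 2 higher in EMCN- LT-HSCs relative to GMPs, with median log2 changes of -3.67 and -2.61. The 10 megakaryocyte markers reached 49.8 to 63.8, 101 to 138 and 13.2 to 28.9 CPM, with Gp1bb, Ppbp and Treml1 at 0 in GMPs. The 12 endothelial markers reached 181 to 211, 154 to 183 and 66.5 to 84.9 CPM, with Cldn5 at 0 in EMCN- LT-HSCs and Cdh5, Esam and Cldn5 at 0 in GMPs. The 9 B cell markers reached at most 12.6, 14.2 and 31.4 CPM, and the 8 T and NK cell markers at most 9.80, 8.23 and 4.42 CPM. Whether cell cycle or cell content has a part in the changes of the ribosome biogenesis genes was not tested.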

How the data were processed

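For each of 11 libraries the authors deposited estimated counts by gene. The submitters' processing notes name cutadapt and Salmon. Versions, genome build and annotation are not given in the sources used here. Libraries were made with a stranded total RNA kit, per the labels' protocols, although the labels also name polyA RNA.

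Counts were rounded, and filterByExpr by group (minimum count 10) left 14915 of 54347 genes with 99.7% of counts. All 11 libraries entered 1 edgeR fit (version 4.0.16, R 4.3.3) on population alone, with TMM scaling and the robust quasi-likelihood option. P-values were adjusted by Benjamini-Hochberg over all tested genes with a threshold of 0.05. SE is the log2 change over the root of F. Coordinates, transcript lengths and overlaps came from GENCODE M21 (GRCm38), promoters from RefSeq (GRCm38.p6), and copies from BLAST 2.17.0 at 90% identity over 200 bases. The limit that 0 counts allow, 3 counts, is 0.209 to 0.705 CPM by library, and this floor covers counting error only.

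The 57 genes, their roles and the other lists were chosen with earlier results of these data known. Genes named were those called between LT-HSC fractions and the 5 with the smallest p there; against GMPs the 3 with the smallest p per role and those called against most; the highest per kb per role; and up to 2 called per other list. Other genes of the 57, and Car2, were named after their values were seen. Labels give the mouse of each library, which pairs same-numbered libraries. Deviations from group means correlated at 0.198 on average within mice between LT-HSC fractions (0.165 to 0.223, 3 pairs), 0.133 between EMCN- LT-HSCs and GMPs and 0.0253 between EMCN+ LT-HSCs and GMPs. Replicates differed beyond sampling (chi-square per degree of freedom 8.86 to 37.8 over 15 pairs). Alternatives were RLE and total-count scaling, no low-count filter or one of 5 CPM, DESeq2 1.42.0, no robust dispersion, mouse as a block, protein-coding genes alone, each library left out in turn and, added after seeing the data, a length correction with and without the block.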

Additional observations from a re-analysis of the deposited data

Results flagged for a closer look

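In 4 of 114 gene and group combinations of 4 libraries, 1 library stood apart from the other 3 by Dixon's criterion, while chance alone gives about 5%. Polr1a had 94.0 CPM in GMP replicate 1, against 79.8 to 82.0 CPM in the other GMP libraries. Rrp9 had 18.9 CPM in GMP replicate 3, against 25.7 to 26.7 CPM in the others. Emg1 had 83.6 CPM in GMP replicate 2, against 67.7 to 68.5 CPM in the others. Dimt1 had 13.1 CPM in EMCN+ LT-HSC replicate 3, against 12.5 to 12.6 CPM in the others, a group that is tight as a whole.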

How the results depend on the processing

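Over 22 alternatives, 166 counts and medians kept their direction and size, 30 moved and 2 changed sign. Total-count scaling turned the median log2 change of the 57 genes against GMPs to 0.39 in EMCN+ and 0.49 in EMCN- LT-HSCs. It gave 32 higher and 7 lower in EMCN+, 30 higher and 6 lower in EMCN- LT-HSCs, and 0 called between fractions. Of all tested genes it called 60.2% higher and 12.6% lower in EMCN+, and 55% and 9.88% in EMCN- LT-HSCs. Between fractions it called 1.08% higher and 0.335% lower. Under it 31 of the 57 in EMCN+ and 30 in EMCN- LT-HSCs turned positive against GMPs, as did 10 between the fractions. Of the genes named by rule for EMCN+ LT-HSCs these were Polr1e at 0.23, Heatr1 at 0.21, Fbl at 0.46, Nop58 at 0.41, Dkc1 at 0.061, Rrp12 at 0.38, Nolc1 at 0.11 and Ddx21 at 0.62. Of those named for EMCN- LT-HSCs they were Utp14a at 0.26, Nop56 at 0.025, Fbl at 0.59, Nop58 at 0.70, Dkc1 at 0.21, Ltv1 at 0.064, Rrp12 at 0.54 and Nolc1 at 0.24. Of the genes called lower against GMPs in the main fit, 11 in EMCN+ and 1 in EMCN- LT-HSCs were called higher with total-count scaling. The shift of all genes is part of that scaling.

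Between LT-HSC fractions the number lower was 1 with RLE factors or without robust dispersion, 4 among protein-coding genes alone, 3 with DESeq2 and 0 to 4 with libraries left out (median -0.29 to -0.16). With the replicate block it was 3 in 11 libraries and 5 in 9, where 1 was higher in EMCN+ LT-HSCs than in GMPs. The block moved no other count by over 1.5 times. Of all tested genes 0.872% were lower between fractions with RLE factors and 0.784% without robust dispersion. The share was 2.29% among protein-coding genes alone and 1.66% with DESeq2. It was 0.188 to 1.52% with libraries left out, and 1.6% and 1.82% with the block in 11 and 9 libraries. Leaving out libraries gave 31 to 37 lower and 1 to 4 higher in EMCN+ LT-HSCs (median -0.49 to -0.37), and 20 to 25 lower and 1 to 6 higher in EMCN- LT-HSCs (median -0.30 to -0.17). Nop58, near 0 in EMCN- LT-HSCs relative to GMPs, ranged from -0.14 to 0.089 with libraries left out, and was above 0 without GMP replicate 1 (0.030) or 4 (0.089) or EMCN- replicate 2 (0.042) or 4 (0.0076). The length correction gave medians of -0.68 in EMCN+ and -0.41 in EMCN- LT-HSCs with 1 higher in the second. With the block it gave -0.68 and -0.45, with 35 lower and 1 higher in EMCN- LT-HSCs. Under it Fbl turned to 0.032 (0.029 with the block) and Noc3l to -0.0046 (-0.0056) in EMCN+, and Fbl to 0.17 (0.095) and Ddx21 to -0.28 (-0.32) in EMCN- LT-HSCs. The cause was not tested for these. With 3 or 4 mice a group, the SE of a log2 difference between LT-HSC fractions was 0.103 to 0.203 over the 57 genes.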
